A study of Homo sapiens with 8 samples.

Results

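The 1628 regions described here are lone peaks of HA-LSF ChIP over input on the autosomes other than chromosome 6, out of 2412 rows in the 2 peak lists of the series. They were selected on the measured peak positions. The peaks of both lists on chromosomes 1 to 22 except 6 were pooled, 1 row listed past the end of chromosome 11 was dropped, peaks at most 20 kb apart from edge to edge were joined, and peaks that joined no other were kept. This left 1408 of 1573 mono-nucleosome peaks on these chromosomes, or 89.5% (95% Wilson interval 87.9% to 90.9%), and 220 of 278 di-nucleosome peaks, or 79.1% (74.0% to 83.5%). The other 223 peaks there were joined to at least 1 neighbour. Because both lists were joined together, 17 mono-nucleosome and 18 di-nucleosome peaks that were alone in their own list were removed through a peak of the other list, so no lone peak of one list lies within 20 kb of a lone peak of the other.

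The cells were HEK293T, an established human embryonic kidney line, made into a stable line in which HA-tagged LSF is expressed on induction. Both lists come from cells given 5 μM of the inducer RSL1 for 24 h, with chromatin cut enzymatically and precipitated with an antibody against the HA tag. DNA of mono- and of di-nucleosome size was sequenced separately, each with its own input, so 4 of the 8 libraries stand behind the lists. The other 4, from the same line with DMSO as the inducer label, were not analysed here. There was 1 library per condition and hence no replicate, and whether the line is a single clone is not given in the sources used here. The depth of the libraries is unknown, and the intervals below cover counting error only, with each peak taken as independent.

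The protein LSF binds DNA and regulates transcription, and its gene is TFCP2. A peak is a place where the precipitated DNA exceeds the input, and a lone peak is a single such place with no other called nearby. Human chromosomes alternate between bands that stain lightly with Giemsa, which are rich in genes and in G and C, and dark bands, which are poor in both. Cultured lines such as HEK293T also depart from the normal number of copies of whole chromosomes and arms. The question here was whether lone peaks are spread evenly along the arms, and whether the 2 lists, which share no site by the rule above, show the same uneven spread. Copy number and input reads were not analysed here. No base sequence is printed, because the coordinates are those of hg19 and a genome of that build was not used here.

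Lone peaks scored lower than joined peaks and only slightly lower than their lists as a whole. The score given to each peak, whose scale is not stated, had a lowest value of 50.0, and the median was 54.9 for mono-nucleosome lone peaks and 55.9 for di-nucleosome lone peaks. Of the lone peaks, 72.8% and 71.4% respectively scored below 60, against 66.9% and 62.4% of all peaks in the lists, whose medians were 55.9 and 56.6. A score above 100 was found for 4 mono-nucleosome and 1 di-nucleosome lone peak, whereas 45 of 165 joined mono-nucleosome peaks and 20 of 58 joined di-nucleosome peaks on the same chromosomes exceeded it. Joined peaks had median scores of 66.0 and 81.3, and they were wider, with medians of 711 and 2007.5 bp against 543 and 1184 bp for lone peaks. These values come from the same lists that chose the members and are given without a test. The edge-to-edge distance from a lone peak to the nearest peak had a median of 339 kb and reached 17.8 Mb. At the 20 kb limit, the closest lone peak had its neighbour at 20.1 kb, a mono-nucleosome peak on chromosome 19 that spans 55671596 to 55672145 and scored 63.6. The joined pair nearest to the limit lay 19.4 kb apart on chromosome 2, with scores of 56.1 and 59.7.

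The 5 mono-nucleosome lone peaks with the highest scores were spread over 4 chromosomes. The first had a score of 126 and lay in band 10p12.1, from 27228453 to 27229346, with its nearest peak 484 kb away. It was followed by a peak in 17q22 from 56431167 to 56432320 with 114, one in 17q25.3 from 80452453 to 80452998 with 111, one in 19q13.12 from 35770901 to 35773336 with 106, and one in 8q22.1 from 96105238 to 96106201 with 98.8. The highest di-nucleosome lone peak, in 5q32 from 149034197 to 149037146, scored 113. Next came 16p13.3 from 3263933 to 3266641 with 93.2, which lay 21.5 kb from a neighbour and so only just outside the joining distance. The others were in 17q22 from 57146079 to 57147380 with 90.4, in 17q21.32 from 46723021 to 46724193 with 88.6, and in 14q24.1 from 67951542 to 67953209 with 83.9. Band 17q22 thus held a high-scoring lone peak of each list, at separate places.

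Lone peaks were unevenly distributed over the chromosome arms, and the arms with few were few in both lists. Densities were taken over the 37 arms with sequence outside centromeric, variable and stalk bands, which together hold 2495 Mb, and over the 1397 mono-nucleosome and 219 di-nucleosome lone peaks in that length. Over all arms the mono-nucleosome density was 0.560 peaks per Mb (exact Poisson 95% interval 0.531 to 0.590) and the di-nucleosome density was 0.0878 (0.0765 to 0.100). Between arms the mono-nucleosome density ranged from 0.105 to 2.24 peaks per Mb, a ratio of 21.5.

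The 5 densest arms in the mono-nucleosome list were 19q, 19p, 17q, 10p and 16p. On 19q there were 60 lone peaks, or 2.24 per Mb (1.71 to 2.89), and on 19p 36, or 1.80 per Mb (1.26 to 2.49). The arms of chromosome 19 did not differ beyond their intervals. Arm 17q had 1.17 per Mb, 10p had 38 lone peaks in 38 Mb, and 16p had 0.925 per Mb. In the di-nucleosome list the same arms had 3 lone peaks on 19q, 3 on 19p, 9 on 17q, 5 on 10p and 4 on 16p, from 0.112 per Mb on 19q to 0.162 on 17q, all over the density of all arms but each with an interval that spans it.

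At the other end were 13q, 4p, 4q, 9p and 8p. Arm 13q, with 95.7 Mb of usable length, held 10 mono-nucleosome lone peaks, or 0.105 per Mb (0.0501 to 0.192), and 1 di-nucleosome lone peak. Arm 4p held 6 and 1, 4q held 18 and 3, 9p held 8 and 0, and 8p held 8 and 1. The intervals of these 5 mono-nucleosome densities overlap one another, so their order was not resolved, and none reaches the density of all arms. The longest stretch without a lone peak of either list outside centromeric, variable and stalk bands was also on chromosome 13, from 45351014 to 80953380. It spans 35.6 Mb and held 0 joined peaks as well. The next were 23.9 Mb on chromosome 3 from 63980036 to the centromeric bands at 87900000, and 23.6 Mb on chromosome 8 from 70792446 to 94437875.

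**Figure D1:**
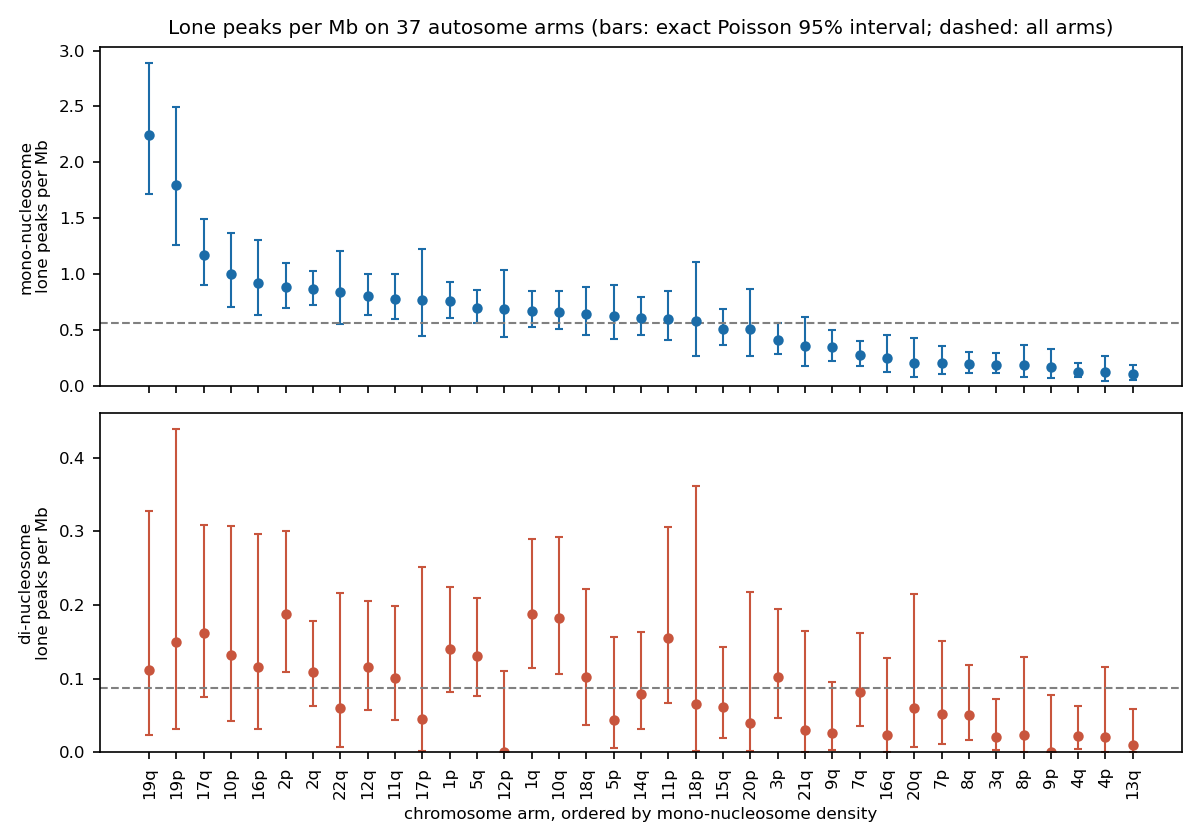
Lone peaks per Mb on each of 37 autosome arms in the mono-nucleosome list (upper) and the di-nucleosome list (lower), in the order of the mono-nucleosome density; points are densities, bars exact Poisson 95% intervals, and the dashed line is the density over all arms. The mono-nucleosome values fall from 2.24 on 19q to 0.105 on 13q, and the di-nucleosome values of the arms at the right all lie under their dashed line.

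By their exact intervals, 11 of 37 arms (29.7%) were above the mono-nucleosome density of all arms and 12 (32.4%) were below it. The arms above were 1p, 2p, 2q, 5q, 10p, 11q, 12q, 16p, 17q, 19p and 19q. The arms below were 3q, 4p, 4q, 7p, 7q, 8p, 8q, 9p, 9q, 13q, 16q and 20q. Both arms of chromosomes 2 and 19 were in the first group, and both arms of 4, 7, 8 and 9 in the second. Across the 16 chromosomes with usable sequence on both arms, the densities of the short and the long arm went together in the mono-nucleosome list (Pearson's r = 0.852, Spearman's rho = 0.706, a description over arms that share libraries). Chromosome 19 was the densest on both arms in that list, with 1.80 and 2.24 per Mb, and r without it was not computed. In the sparser di-nucleosome list r was 0.349 and rho 0.300.

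The di-nucleosome densities went with this grouping of the arms, which was made from the mono-nucleosome densities. The di-nucleosome list entered the grouping only through the joining step, which removed 17 mono-nucleosome peaks. In all 12 arms below the mono-nucleosome density of all arms, the di-nucleosome density was under its own all-arm value, and in all 11 arms above, it was over that value. Of the whole 37 arms, 21 were under and 16 over. The 14 arms with a mono-nucleosome interval that spans the density of all arms were mixed, with 9 under and 5 over. Short arms have wide intervals and fall in this class more readily. Among them 22q and 17p, with 0.838 and 0.766 mono-nucleosome lone peaks per Mb, had 0.0599 and 0.0450 di-nucleosome ones. As a group, the 12 sparse arms had 29 di-nucleosome lone peaks in 878 Mb, or 0.0330 per Mb (0.0221 to 0.0474), and the 11 dense arms had 110 in 838 Mb, or 0.131 per Mb (0.108 to 0.158). The ratio of these densities was 3.97 (exact conditional 95% interval 2.62 to 6.21). For the same arms the mono-nucleosome densities, which chose them, were 0.195 and 0.907 per Mb. Over the 37 arms the densities of the lists gave r = 0.585 and rho = 0.732, and without chromosome 19 r = 0.692 and rho = 0.723 over 35 arms. The lists share cells and the kind of preparation, which these values do not separate.

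**Figure D2:**
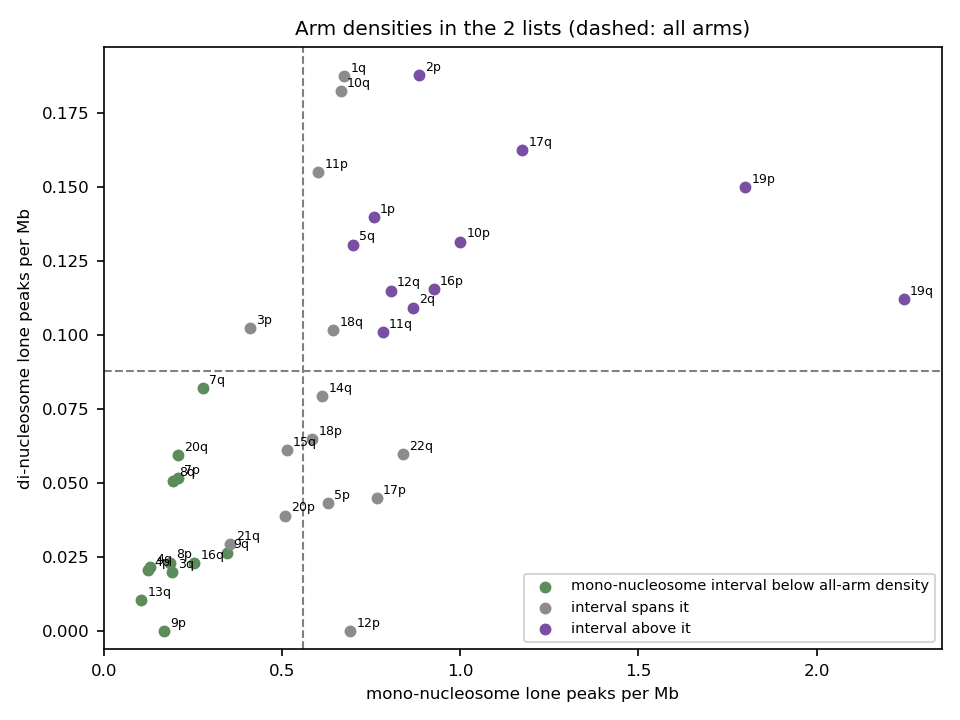
Di-nucleosome against mono-nucleosome lone peaks per Mb for 37 arms, coloured by whether the exact mono-nucleosome interval lies below, spans or lies above the density over all arms (dashed lines). All 12 arms of the lowest class sit under the di-nucleosome line and all 11 of the highest class sit over it. Arms 19p and 19q lie far to the right but are not the highest. Arms of the class between lie on both sides of the line.

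Single arms stood apart in the di-nucleosome list in only a few cases. Its interval was above the density of all arms on 1q, 2p and 10q, 3 of 37 arms (8.11%), with 0.188, 0.188 and 0.182 peaks per Mb. It was below on 3q, 4q, 9p and 13q, 4 of 37 (10.8%). Of these 7 arms, 2p was also above in the mono-nucleosome list and 3q, 4q, 9p and 13q were also below. Arm 12p, one of the 2 arms without a di-nucleosome lone peak, had 23 mono-nucleosome lone peaks, or 0.691 per Mb. The upper bound of its di-nucleosome density was 0.111 per Mb, which is above the density of all arms. On 19q di-nucleosome peaks made up 4.76% of the lone peaks (Clopper-Pearson 95% interval 0.993% to 13.3%), the lowest share among arms with at least 1 of them. The highest was 22.9% (10.4% to 40.1%) on 7q, followed by 20q and 1q. Over all arms 219 of 1616 lone peaks were di-nucleosome ones, a share within the intervals of 7q and 20q. The interval of 19q ended just under this share, and that of 1q (13.8% to 31.6%) began just over it.

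Light bands were denser in lone peaks than the darkest bands in both lists, but the share of light bands hardly ordered the arms. Light bands held 0.687 mono-nucleosome lone peaks per Mb (0.640 to 0.737) and the darkest bands 0.305 (0.255 to 0.363), a ratio of 2.25 (1.87 to 2.73). In the di-nucleosome list the values were 0.107 (0.0888 to 0.127) and 0.0446 (0.0269 to 0.0697), a ratio of 2.39 (1.47 to 4.11). The palest of the dark bands did not differ from the light bands beyond the intervals in either list, with 0.800 and 0.0951 per Mb. Across the arms, however, the share of light bands varied only from 35.6% to 62.1%, and it had r = 0.154 with the mono-nucleosome density and -0.0236 with the di-nucleosome density. When each arm was given the number of lone peaks that its bands would hold at the densities above, observed over expected in the mono-nucleosome list still ran from 0.195 on 13q to 2.98 on 19q, with 11 arms above and 12 below by their intervals. Observed over expected in the 2 lists gave r = 0.617 and rho = 0.701 over the 37 arms.

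Lone peaks were also denser in the outermost 10 Mb of the arms in both lists. The outermost 10 Mb held 0.754 mono-nucleosome lone peaks per Mb (0.668 to 0.848), and places more than 50 Mb from an end held 0.433 (0.391 to 0.478). The outermost 10 Mb over the rest of the arms gave a ratio of 1.43 (1.25 to 1.64) for mono-nucleosome lone peaks. For di-nucleosome lone peaks the ratio was 1.66 (1.18 to 2.29). Further in, the di-nucleosome density showed no steady fall, with 0.0876 per Mb (0.0599 to 0.124) at 10 to 20 Mb and 0.0811 (0.0636 to 0.102) beyond 50 Mb. Places more than 50 Mb from an end exist only on long arms, so these values do not separate position from the level of the arm. Counted from the centromeric bands, the mono-nucleosome density was 0.514 per Mb in the first 10 Mb and 0.620 beyond 50 Mb. For the di-nucleosome list these were 0.0608 (0.0371 to 0.0939) and 0.103 (0.0831 to 0.125).

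**Figure D3:**
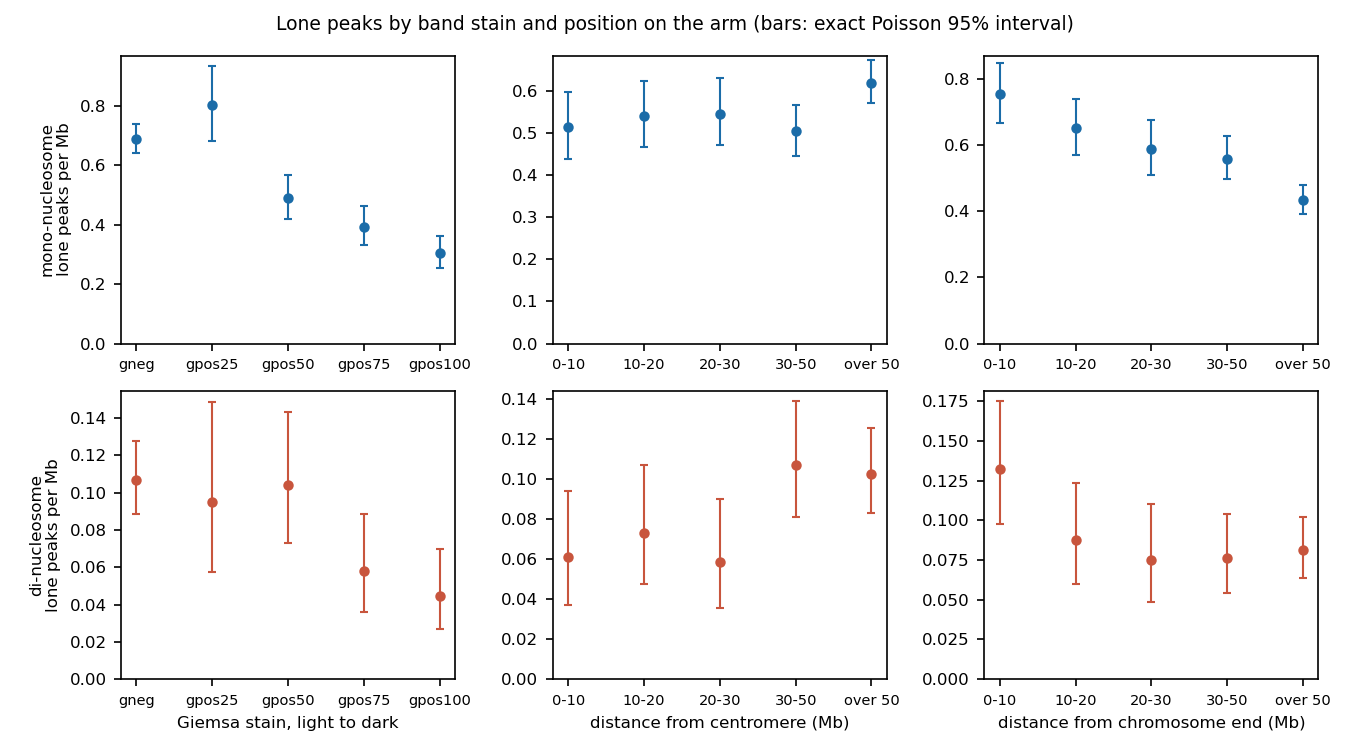
Lone peaks per Mb by Giemsa stain from light (gneg) to darkest (gpos100), by distance from the centromeric bands and by distance from the chromosome end, for the mono-nucleosome list (upper row) and the di-nucleosome list (lower row); points are densities and bars exact Poisson 95% intervals. The mono-nucleosome density drops from 0.687 in light to 0.305 in the darkest bands and from 0.754 in the outermost 10 Mb to 0.433 beyond 50 Mb.

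The 2 lists were then compared in fixed bins of 5 Mb, of which 500 had at least 2.5 Mb of usable length. Mono-nucleosome lone peaks numbered 0 to 15 per bin, with a median of 2, and 116 bins (23.2%) had none. Di-nucleosome lone peaks numbered 0 to 4, and 342 bins (68.4%) had none. The variance over the mean was 2.51 and 1.26. In 107 bins there was no lone peak of either list. Of the 158 bins with a di-nucleosome lone peak, 9 had no mono-nucleosome one. The 5 fullest bins were on chromosomes 19, 17 and 2. The bin from 15 to 20 Mb of chromosome 19 held 15 mono-nucleosome and 1 di-nucleosome lone peaks, and the bin from 35 to 40 Mb of the same chromosome 15 and 0. On chromosome 17 the bin from 70 to 75 Mb held 13 and 2. The bin from 40 to 45 Mb of chromosome 19 held 12 and 0, and the bin from 70 to 75 Mb of chromosome 2 held 10 and 2.

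Where the mono-nucleosome list had few lone peaks in a bin, so did the di-nucleosome list. In the 116 bins with 0 mono-nucleosome lone peaks the di-nucleosome density was 0.0213 per Mb (0.0110 to 0.0373), in the 88 bins with 1 it was 0.0549 (0.0352 to 0.0817), and in the 64 bins with 2 it was 0.111 (0.0773 to 0.154). Beyond that it no longer rose steadily. It was 0.129 with 3, 0.0738 with 4, 0.156 with 5 and 0.153 with 6 or more, and the interval of the class with 4 (0.0451 to 0.114) ended just under that of the class with 6 or more (0.115 to 0.199). Bins with 5 or more mono-nucleosome lone peaks exceeded bins with 0 or 1 in di-nucleosome density by a ratio of 4.27 (2.87 to 6.48). Among bins split in 3 groups by their share of light bands, the same ratio was 4.82 (2.42 to 9.98) where light bands were fewest, 4.71 (2.15 to 10.9) in the middle, and 3.39 (1.72 to 7.30) where they were most plentiful.

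**Figure D4:**
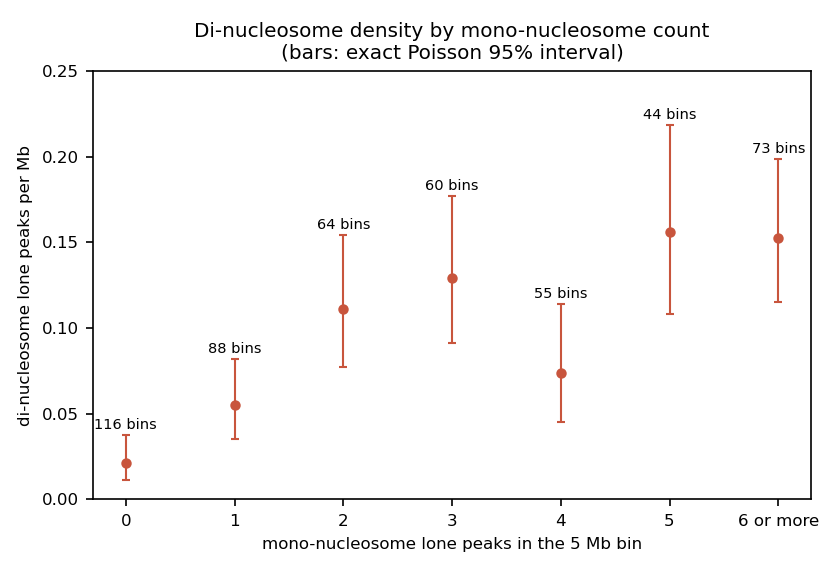
Di-nucleosome lone peaks per Mb in 5 Mb bins grouped by the number of mono-nucleosome lone peaks in the bin; points are densities, bars exact Poisson 95% intervals, and the number of bins is printed above each. The density climbs from 0.0213 in bins with 0 to 0.111 in bins with 2 and is uneven after that.

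Bin by bin the correlation was low. Over the 500 bins r was 0.272 and rho 0.335, given as a description of bins that share libraries and base composition. The di-nucleosome list had a mean of 0.436 lone peaks per bin. Counting error in such small counts lowers r, so these values do not show how closely the underlying densities agree. The correlation grew with the size of the bin, from r = 0.170 at 2 Mb to 0.377 at 10 Mb and 0.523 at 20 Mb. Larger bins also hold more peaks, which was not separated from their size. With the mean of its own arm taken off each bin, r was 0.152 and rho 0.156. These correlations were thus smaller once the levels of whole arms were taken off, but with so few di-nucleosome peaks agreement within arms was not resolved. The joining rule also removes sites that the lists share within 20 kb. With peaks joined within each list, and no arm mean taken off, r was 0.368.

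**Figure D5:**
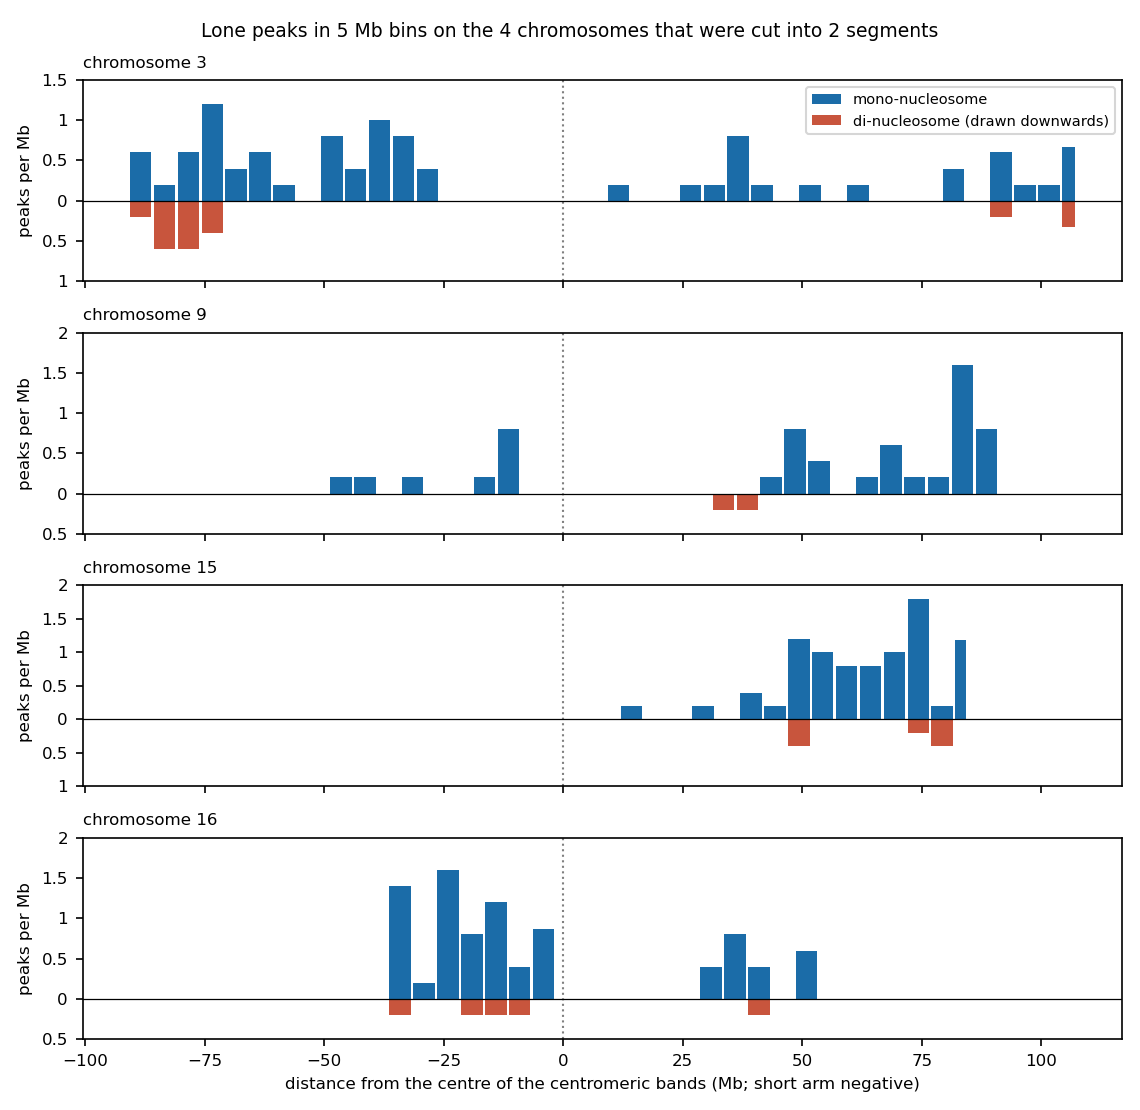
Lone peaks per Mb in 5 Mb bins along chromosomes 3, 9, 15 and 16, by distance from the centre of the centromeric bands, with the mono-nucleosome list drawn upwards and the di-nucleosome list downwards; bins with under 2.5 Mb of usable length are left blank. Chromosome 15 is nearly empty for its first 9 bins, with 5 mono-nucleosome and 0 di-nucleosome lone peaks, and then holds 37 and 5.

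Steps in density were sought at 2 kinds of boundary. The first was the centromere, which no peak value chose. In the mono-nucleosome list the ratio of the long to the short arm had an interval excluding 1 on 2 of 16 chromosomes (12.5%). On chromosome 16 it was 0.274 (0.125 to 0.559), with 32 lone peaks on the short arm and 11 on the long arm, and on chromosome 3 it was 0.465 (0.252 to 0.833), with 36 and 19. In the di-nucleosome list chromosome 16 had 4 and 1, with an interval of the ratio that reaches from 0.00405 to 2.02. Chromosome 3 had 9 and 2, a ratio of 0.196 (0.0206 to 0.946), the only one of the 16 that excluded 1 in this list (6.25%). The lists went the same way on 11 of the 16 chromosomes (68.8%).

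The second was a single bin boundary per chromosome, chosen by the highest Poisson likelihood of 2 mono-nucleosome densities and not by the largest ratio. Boundaries needed at least 15 Mb of usable length on either side. Of all 408 such boundaries, the mono-nucleosome ratio excluded 1 at 23.0%, the di-nucleosome ratio at 7.11%, and both lists went the same way at 57.8%. At the 21 boundaries chosen in the mono-nucleosome list the di-nucleosome list went the same way at 11, which is no more than over all boundaries. With the boundary chosen in the di-nucleosome list instead it was 12 of 21. Where the mono-nucleosome interval at its own boundary excluded 1, the lists went the same way at 6 of 14, and where the di-nucleosome interval there did, at 2 of 2. At the boundaries chosen in the di-nucleosome list these were 5 of 5 and 4 of 4. With peaks joined at 5 kb instead of 20 kb, the lists went the same way at 14 of 21 boundaries chosen in the mono-nucleosome list. The boundaries were chosen for their steps, so these counts are a description.

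Individual steps differed in this. Among the boundaries chosen in the mono-nucleosome list, the largest mono-nucleosome ratio was on chromosome 15 at 65 Mb, in 15q22.31. The density went from 0.113 per Mb before it to 0.986 per Mb after it, a ratio of 8.73. The di-nucleosome list had 0 lone peaks in the 44.3 Mb before this place and 5 in the 37.5 Mb after it, and the lower bound of its ratio was 1.08. The place itself was less certain, since boundaries every 2 Mb put it at 56 Mb. With peaks at or above the median score chromosome 15 had 0 mono-nucleosome lone peaks before 65 Mb and 17 after it. Light bands made up 41.5% of the sequence before the step and 51.5% after it.

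On chromosome 16 the chosen boundary was the centromere. On chromosome 9 it was at 95 Mb, with 9 mono-nucleosome lone peaks before and 25 after, a ratio of 4.59, whereas the di-nucleosome list had 2 before and 0 after. On chromosome 20 it was at 15 Mb, with 12 before and 8 after over a longer stretch, a ratio of 0.226. Its place was uncertain, since boundaries every 2 Mb put it at 38 Mb, with 18 before and 2 after. At 15 Mb the di-nucleosome list had 1 and 2, a ratio of 0.678. That direction turned with the spacing of the boundaries, to a ratio of 2.73 with boundaries every 2 Mb. On chromosome 21 the chosen boundary was at 30 Mb, with 2 before and 10 after, and the interval of 0.923 to 40.6 did not exclude 1.

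A segmentation of the mono-nucleosome bins, added after the data were seen, allowed several steps per chromosome at a fixed penalty. Each segment needed at least 3 bins, so a shorter stretch could not be set apart. It cut 4 of 21 chromosomes, each once, and left 17 with a single level. The 4 were chromosomes 3, 9, 15 and 16. On chromosome 3, which was not among the 5 largest ratios and is named for this reason after its values were seen, the cut was at 65 Mb, in 3p14.1. The mono-nucleosome density was 0.554 per Mb before it, with lone peaks in 12 of 13 bins, and 0.157 after it, with lone peaks in 12 of 25 bins. The di-nucleosome list had 9 lone peaks before and 2 after, a ratio of 0.118 (0.0124 to 0.569). Those 9 all lay before 20 Mb, where the di-nucleosome list put its own boundary, so the lists had the same direction on chromosome 3 but not the same place. The di-nucleosome list went the same way as the mono-nucleosome list on chromosomes 3, 15 and 16 and the other way on chromosome 9. On chromosome 9 this rests on 2 peaks against 0, with an interval of the ratio from 0 to 8.80, and it turned with the place of the boundary. At 80 Mb, the boundary chosen in the di-nucleosome list, there were 0 before and 2 after.

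Chromosomes 6 and X, handled by the same rule, are given for scale. Chromosome X had 0.911 mono-nucleosome lone peaks per Mb (0.765 to 1.08), within the range of the arms described above, and 0.286 di-nucleosome lone peaks per Mb (0.207 to 0.385). Chromosome 6 had 0.829 (0.696 to 0.979) and 0.252 (0.182 to 0.341). Both di-nucleosome values exceeded that of each of the 37 arms, the highest of which was 0.188 on 2p with an interval of 0.109 to 0.301 that overlaps both.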

How the data were processed

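Peaks were called by the authors with MACS, as the peak names show, on 1 HA ChIP library against 1 input library for each DNA size. The submitters' processing notes name CASAVA 1.4, BWA and the build hg19. The version and settings of the caller are not given in the sources used here. Each deposited row gives a position and a score, which served for ranks and for 1 stricter alternative inside each list. Columns of read counts or depth were not used here, and the libraries' depth is unknown.

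Starts were converted to count from 1, and a peak was placed by its midpoint. Bands and arms were those of hg19 in circlize 0.4.16, whose chromosome ends equal those in GenomeInfoDb 1.38.1. Centromeric, variable and stalk bands, with 12 lone peaks in them, were left out of densities. Density intervals are exact Poisson, and intervals of ratios are exact conditional ones, at 95%. No p-value was computed, since each condition has 1 library. A step was placed by the highest Poisson likelihood of 2 densities. The code for lone peaks, intervals and step placement was tested on simulated data. The simulated steps lay only on the longer chromosomes, so placement on the shorter ones was not tested. Regions were named by rank of density, count, ratio or score, 5 of each kind, plus the longest empty stretch. The members, lists and comparisons were chosen with earlier results of these data known. Python 3.11.15, numpy 2.4.6, pandas 2.3.3, scipy 1.17.1 and matplotlib 3.10.9 were used.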

Additional observations from a re-analysis of the deposited data

How the results depend on the processing

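Of the alternatives, keeping peaks at or above the median score of their list changed most. It left 766 lone peaks, 670 mono-nucleosome and 96 di-nucleosome, and the di-nucleosome interval then excluded the density of all arms on 4 arms in place of 7. The mono-nucleosome ratio of long to short arm excluded 1 on 1 chromosome in place of 2, and bin by bin r was 0.175 and rho 0.223. The stricter score leaves fewer peaks. Bin size moved the agreement, to r = 0.170 and rho = 0.208 at 2 Mb, r = 0.377 and rho = 0.490 at 10 Mb, and r = 0.523 and rho = 0.627 at 20 Mb. Taking off the mean of the arm gave r = 0.152 and rho = 0.156. Taking off the density expected from bands, which was added once the data had been seen, gave r = 0.253 and rho = 0.240. Joining peaks within each list separately gave r = 0.368, a setting that lets both lists hold the same site. Among named regions, 84 recomputed values lay within the interval of the value reported and 3 outside it, and those intervals are wide. Outside it were 2 of the 5 densest arms in the mono-nucleosome list. With peaks joined at 50 kb, 17q went from 2.10 to 1.59 of the density of all arms. With the stricter score 19q went from 4.01 to 5.47 of that density. The third was the mono-nucleosome ratio on chromosome 20, from 0.226 to 0 with the stricter score. Among the values within the interval, 9p went from 0.302 to 0.159 of the density of all arms with the stricter score. With that score the mono-nucleosome ratio on chromosome 9 went from 4.59 to 7.67. With boundaries every 2 Mb that on chromosome 15 went from 8.73 to 15.2. The di-nucleosome ratios on chromosomes 9 and 20 turned direction with the place of the boundary. With 1 library per condition and no depth, a stretch without a lone peak may hold places just under the caller's cut-off. No paired analysis was possible because the lists hold 1 ChIP library per DNA size.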

Other observations

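Of the 12 lone peaks in centromeric or variable bands, which entered no density, 7 lay in the variable bands 19p12 and 19q12 and the other 5 in centromeric bands of chromosomes 2, 4, 5 and 22. Across the 37 arms the median score of the mono-nucleosome lone peaks ranged from 51.6 to 58.4, and it had r = 0.489 and rho = 0.358 with the density of the arm, given as a description. The row left out of the di-nucleosome list scored 275 and spans 145392941 to 145401717 of chromosome 11, past the chromosome's length of 135006516.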
